A study of Mus musculus with 16 samples.

Results

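Fully grown mouse oocytes store the mRNAs of several proteins that are better known from early embryos and embryonic stem cells. Of these, 8 were followed here by gene name in a table of 27987 gene names (28618 entries): the developmental pluripotency-associated genes Dppa2, Dppa4 and Dppa5a, the pluripotency regulators Pou5f1, Sall4 and Lin28a, and the broadly expressed DNA-binding factors Tcf3 and Ctcf. The 8 names occupied 10 entries, because Pou5f1 was listed 3 times. The RNA-seq libraries came from wildtype (WT) oocytes and from oocytes in which floxed Psma7, encoding an α-subunit of the proteasome core particle, had been deleted by Zp3-Cre (Psma7 cKO). The floxed allele was made in C57BL/6 mice. Both genotypes were sampled at 2 stages, giving 4 groups of 4 libraries. For both stages the females were 3 to 4 weeks old and received 5 IU PMSG. Germinal vesicle (GV) oocytes were taken 44 h after PMSG. Metaphase II (MII) eggs were taken from oviducts 14 to 16 h after the hCG injection that followed PMSG by 44 h. Cumulus cells were removed from the eggs in 0.3% hyaluronidase.

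Zp3-Cre is active in the oocyte once follicles become primary, so the surrounding follicle cells keep the gene. The WT samples are not labelled as carrying Cre, and the presence of Cre and the loss of Psma7 cannot be told apart. Each library is a pool that the labels call a biological replicate. The labels give 5 oocytes per pool and the study's methods another number. The study reports that some ovulated Psma7 cKO oocytes failed to release the first polar body or stayed at the GV stage. Whether the Psma7 cKO egg pools held such oocytes is not stated. In eggs a difference of genotype and such a difference of stage cannot be told apart. Whether pools came from separate animals is not stated, and the p-values measure the spread between pools. Values are FPKM, fragments per kilobase of transcript scaled to the mapped fragments of the library, which are shares of a library. In such bulk samples less RNA per oocyte and fewer cells of a type cannot be told apart, and a rise in share can accompany a fall in amount per oocyte. Group values are given as mean ± SD (n = 4). Fold changes on the log2 scale are limma estimates from FPKM values floored at 1, and a transcript was called changed at a Benjamini-Hochberg adjusted p under 0.05 over all entries tested, those with a mean of at least 1 FPKM in the libraries compared.

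As background, DPPA2 and DPPA4 are chromatin proteins with SAP domains that work as a pair. They keep the promoters of developmental genes poised and favour expression of early zygotic genes. DPPA5 is a small KH-domain protein of stem cells and germ cells. OCT4, the product of Pou5f1, and SALL4, a zinc-finger protein that binds the NuRD corepressor, are core factors of the pluripotency network, and SALL4 is also required in growing oocytes. LIN28A binds let-7 precursors and many mRNAs. TCF3 is the E-protein E2A, a basic helix-loop-helix factor that pairs with tissue-specific partners and is held back by ID proteins. CTCF anchors chromatin loops together with cohesin. A transcriptionally silent oocyte receives no new mRNA during meiotic maturation, when many stored transcripts are shortened at the poly(A) tail and degraded while others have the tail extended.

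The genes lie on different chromosomes apart from the Dppa2 and Dppa4 pair (mm10, GENCODE M21). Dppa4 is at chr16:48283733-48294237 and Dppa2 at chr16:48303908-48319723, both on the plus strand and 9670 bases apart. Dppa5a is at chr9:78367052-78368177 (minus), Pou5f1 at chr17:35506018-35510772 (plus), Sall4 at chr2:168748332-168767943 (minus), Lin28a at chr4:134003330-134018841 (minus), Tcf3 at chr10:80409514-80433647 (minus) and Ctcf at chr8:105636568-105682922 (plus). All are protein-coding. Some entries need care. Dppa5a has near-identical copies on the same chromosome whose reads can be shared with it, so its level is uncertain to that extent. The table does not say which transcripts the 3 Pou5f1 entries stand for, and Pou5f1 also has retrocopies elsewhere. The symbol Tcf3 has been used for Tcf7l1 in the stem cell literature, but Tcf7l1 has its own entry here, with group means of 0.0370 to 0.0639 FPKM.

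Because oocyte mRNA stability is read from the 3′ end, the last 30 bases or fewer around the cleavage signal are shown for the members that have one in the last 100 bases of their longest complete coding transcript. Sequences are from GENCODE M21 transcripts, 5′ to 3′ on the mRNA strand with T for U, and the capitals mark the polyadenylation signal AATAAA or its variant ATTAAA.
Dppa5a: aAATAAAaAATAAAattgaagtgATTAAAa
Pou5f1: tcttaAATAAAgactgggacacacagtaga
Sall4: gaaAATAAAgtgaatgttttccctccatga
Ctcf: agctAATAAAtcataacggattaacaggca
Lin28a: AATAAAgacttattggtactccagagttgg
Tcf3: ATTAAAgtagcattcaaaagacccagtgtt
The first 4 windows end at the annotated transcript end. The Lin28a window covers bases 35 to 6 and the Tcf3 window bases 48 to 19, counted back from the end. Dppa5a held 3 signals in its window, and Ctcf held a second AATAAA further upstream, 82 bases from the end. Dppa2 and Dppa4 had neither signal in the last 100 bases of either of their 2 complete coding transcripts. On the mRNA strand alone, with each motif scored as present or absent, 82.2% of 8436 such transcripts of measured genes held AATAAA or ATTAAA. The cytoplasmic polyadenylation elements TTTTAT and TTTTAAT, bound by CPEB1 in maturing oocytes, were in the same window in 20.4% of these transcripts and in 0 of the 8 genes. These are letter matches in annotated ends, and the ends used in oocytes were not analysed here.

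In the label check, Psma7 was far lower in Psma7 cKO libraries at both stages, at 165 ± 25.3 FPKM in WT GV oocytes and 14.6 ± 2.82 FPKM in their Psma7 cKO counterparts. In eggs it was 126 ± 32.1 FPKM in WT against 13.6, 50.3, 35.0 and 59.9 FPKM in the 4 Psma7 cKO libraries. Depth was estimated from the steps between small FPKM values at 10.5 to 15.6 M fragments per library. All 10 oocyte markers, among them Zp3, Gdf9 and Bmp15, were present, with summed levels of 12950 to 14330 FPKM in GV oocytes and 4749 to 6864 FPKM in eggs. The 14 cumulus and granulosa markers summed to 13.8 to 21.6 FPKM, and the aromatase gene Cyp19a1 (group means of 8.11 to 13.7 FPKM, up to 15.2 in a library), Kitl (3.86 to 6.11) and, in GV oocytes, Cyp11a1 (up to 2.63 FPKM in a library) made up most of that sum. The other 11 stayed below 1 FPKM in every library, among them the defining genes Foxl2, Amh and Fshr. The part of such cells in the results was not tested.

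The stored levels spanned a wide range in WT GV oocytes. Dppa5a had 171, 117, 211 and 162 FPKM, Dppa2 had 153, 133, 185 and 134 FPKM, and Sall4 had 127, 126, 145 and 120 FPKM. These 3 overlapped each other and stood above the remaining members in every library. Pou5f1, Ctcf and Dppa4 formed a middle range at 16.7 ± 7.50, 16.0 ± 2.26 and 13.3 ± 1.19 FPKM and could not be ordered beyond their spread. Tcf3 followed at 8.07 ± 2.25 FPKM, with every library below the lowest Dppa4 value, and Lin28a was lowest at 3.07 ± 0.701 FPKM. The other two Pou5f1 entries stayed near 0, with means of 0.108 and 0.0661 FPKM, and were not tested. Dppa4 was therefore a minor transcript beside its partner, at 8.97% ± 1.72 of the Dppa2 FPKM of the same library.

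The order was different in WT eggs. Sall4 led at 267 ± 31.9 FPKM, followed by Dppa2 at 120 ± 8.57 and Dppa5a at 58.6 ± 9.46, and these 3 no longer overlapped. Ctcf was next at 16.3 ± 0.593 FPKM and Pou5f1 at 6.27 ± 0.688. Tcf3 at 3.59 ± 0.560 and Lin28a at 3.39 ± 0.419 FPKM overlapped, and Dppa4 was last at 0.665 ± 0.153 FPKM. By the estimated depth, Dppa4 rested on 10 to 18 fragments in each WT egg library against 236 to 283 in each WT GV library, so its egg values carry the most counting error of the 8.

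**Figure D1:**
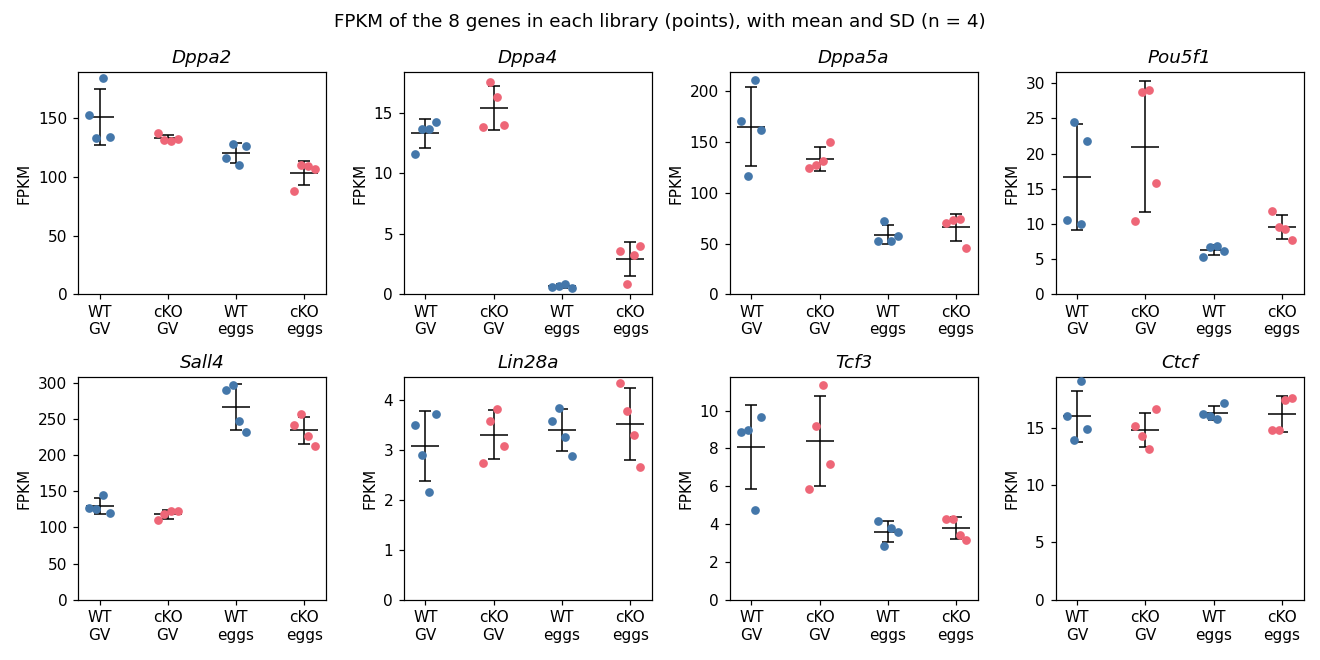
FPKM of each of the 8 genes (Pou5f1: its first entry) in the 16 libraries, one point per library, with the mean and SD of each group of 4; axes are linear, start at 0 and differ between genes. Dppa4 was below 1 FPKM in all WT eggs, Sall4 stood higher in all 8 egg libraries than in all 8 GV libraries, and Lin28a and Ctcf overlapped across the 4 groups.

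The comparison of WT eggs with WT GV oocytes asks which stored mRNAs lose or gain share during maturation. The libraries were primed with oligo-dT, and the part of poly(A) tail length in these stage differences was not tested. Dppa4, Dppa5a, Pou5f1, Tcf3 and Dppa2 fell and Sall4 rose, so 6 of the 8 were called, in a comparison in which 78.5% of 10475 entries tested were called (26.1% higher and 52.4% lower). The members' median log2 fold change was -0.73, beside -0.44 over all entries tested. The count of called members was thus near the background of a transcriptome that changes almost throughout.

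Dppa4 had the steepest fall of the 8. Its values went from 11.6, 13.7, 13.7 and 14.3 FPKM in WT GV oocytes to 0.633, 0.669, 0.865 and 0.494 FPKM in WT eggs, and the groups did not overlap. The means differed 20.0-fold, and the floored estimate, limited because all 4 egg values lie below the floor, was a log2 fold change of -3.73 (SE 0.12, adjusted p = 9.94e-10). The floor makes the 4 egg values equal, so this SE and p take no spread from the egg pools. Dppa4 was the 1 member that passed a 10-fold difference of floored means in WT, as did 1.39% of all entries. Dppa4 passed the filter on low values through the GV libraries alone.

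Its partner Dppa2 lost far less of its share. Dppa2 went from 153, 133, 185 and 134 FPKM to 116, 128, 110 and 126 FPKM, and kept 79.5% ± 5.67 of its GV mean. The groups did not overlap and the log2 fold change of -0.32 was called (SE 0.11, adjusted p = 0.0206), but it is smaller in size than the median fall of all entries. After median-ratio rescaling, which moved the median over all entries by 0.23 in WT, the estimate was -0.10 with an adjusted p of 0.476, and it was -0.32 with an adjusted p of 0.0649 without the filter on low values. It also missed the threshold without WT egg replicate 1 (adjusted p = 0.0527) or replicate 3 (adjusted p = 0.0587). Within a library, Dppa4 dropped from 8.97% to 0.561% ± 0.163 of Dppa2, and the geometric means of this ratio differed 16.3-fold between the stages.

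Dppa5a, Pou5f1 and Tcf3 kept 35.5%, 37.6% and 44.5% of their GV means in WT eggs. Dppa5a fell to 52.6, 72.4, 52.1 and 57.5 FPKM in WT eggs, a log2 fold change of -1.47 (SE 0.17, adjusted p = 1.25e-05). Pou5f1 fell from 10.5, 24.4, 10.0 and 21.8 FPKM to 5.33, 6.73, 6.83 and 6.20 FPKM, a change of -1.30 (SE 0.28, adjusted p = 0.00129). Tcf3 fell from 8.88, 8.99, 4.75 and 9.67 FPKM to 4.13, 2.82, 3.81 and 3.60 FPKM, a change of -1.13 (SE 0.22, adjusted p = 0.000803). None of the 3 overlapped between the stages. Of the 8 genes, 6 had stages that did not overlap, against 72.7% of all entries tested.

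Sall4 moved the other way. Its 4 WT GV values of 120 to 145 FPKM became 291, 298, 248 and 233 FPKM in eggs, 206% ± 24.6 of the GV mean, with a log2 fold change of 1.04 (SE 0.10, adjusted p = 2.99e-06). Lin28a (3.51, 2.89, 2.16 and 3.72 FPKM against 3.59, 3.85, 3.25 and 2.88) and Ctcf (16.0, 14.0, 19.2 and 15.0 against 16.2, 16.1, 15.8 and 17.2) overlapped. Their estimates were 0.17 (95% interval -0.24 to 0.57) for Lin28a and 0.04 (-0.20 to 0.28) for Ctcf. These 3 and, by a small margin, Dppa2 lay above the median of all entries.

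The same comparison in Psma7 cKO oocytes asks whether the stage pattern holds after deletion of Psma7, which the study reports leaves residual PSMA7 protein. The direction of the 6 calls was the same, with Dppa4, Tcf3, Dppa5a, Pou5f1 and Dppa2 lower and Sall4 higher, where 74.0% of 10748 entries tested were called (23.0% higher and 51.0% lower), and the members' median was -0.69 beside -0.42 over all entries. Dppa4 went from 13.8, 17.5, 16.3 and 14.0 FPKM to 3.60, 0.868, 3.25 and 4.02 FPKM, a log2 fold change of -2.55 (SE 0.40, adjusted p = 0.000311), and the means differed 5.26-fold. No member passed 10-fold here, which 0.231% of all entries did. Sall4 rose from 110, 118, 123 and 124 FPKM to 242, 258, 227 and 214 FPKM (0.98, SE 0.08, adjusted p = 8.76e-06).

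Tcf3 (-1.12), Dppa5a (-1.04) and Dppa2 (-0.37) fell with adjusted p-values of 0.00115, 0.000256 and 0.00444. Pou5f1 fell by 1.02 on the log2 scale (SE 0.32, adjusted p = 0.0163), although its lowest GV value, 10.4 FPKM, lay below the highest egg value of 11.9 FPKM. Dppa2, Dppa4, Dppa5a, Sall4 and Tcf3, 5 of the 8, did not overlap between stages, against 68.6% of all entries tested. Lin28a (0.08, 95% interval -0.33 to 0.48) and Ctcf (0.13, -0.13 to 0.38) were not called. Median-ratio rescaling moved the median of all entries by 0.25 in this comparison, which took Dppa2 to -0.12 (adjusted p = 0.333) and Ctcf to 0.38 (adjusted p = 0.0154).

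**Figure D2:**
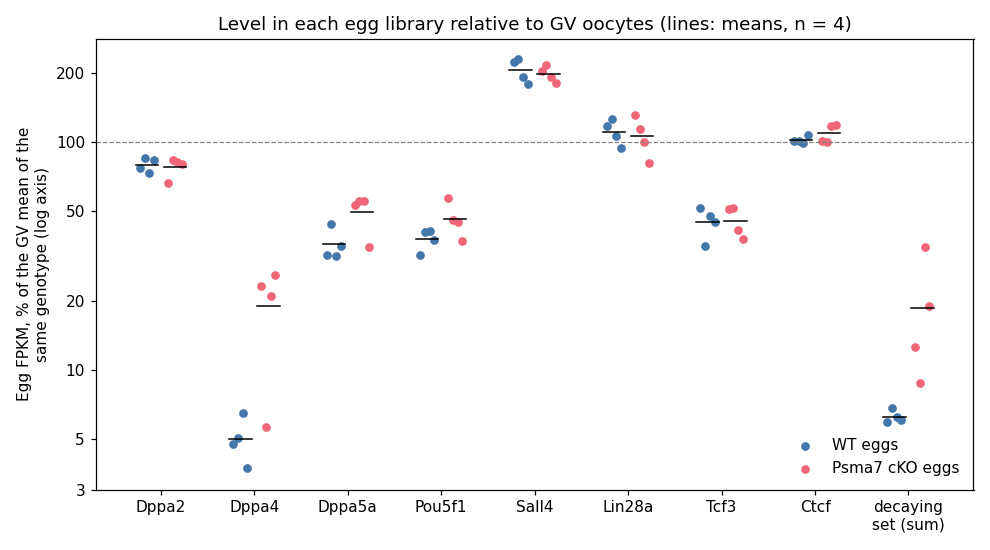
Level of each gene in every egg library as a percentage of the mean of the 4 GV libraries of the same genotype, on a log axis, for WT (blue) and Psma7 cKO (red) eggs; short lines are means, and the dashed line marks 100%. The last column is the summed FPKM of the 396 other entries that fell over 10-fold in WT. In Psma7 cKO eggs Dppa4 kept 23.3%, 5.63%, 21.1% and 26.1%, and the second library is the one with the lowest remaining share in both columns.

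In GV oocytes, where the genotypes can be compared before maturation, 0 of the 8 members were called in a comparison with 0.118% of 11062 entries called, and 0 of the 8 passed an unadjusted p of 0.05 in limma. The largest estimates were Pou5f1 at 0.32 (95% interval -0.51 to 1.16, adjusted p = 0.820), Dppa5a at -0.28 (-0.62 to 0.06, adjusted p = 0.564) and Dppa4 at 0.21 (-0.05 to 0.47, adjusted p = 0.573). Dppa5a had 124, 127, 131 and 150 FPKM in Psma7 cKO GV oocytes and Dppa2 had 138, 132, 131 and 132 FPKM. Sall4, Ctcf, Lin28a and Tcf3 had estimates between -0.13 and 0.13. All 8 overlapped between genotypes, where 6.67% of entries did not, and 0 of the 8 had floored means over 3-fold apart, where 0.0245% of entries did. The intervals reach furthest for Pou5f1, whose difference was not detectable against a spread that it also had among libraries of one genotype.

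In eggs, 1 of the 8 members was called between genotypes, Pou5f1, in a comparison with 8.02% of 9492 entries called (6.53% higher, 1.49% lower). Of all calls 81.5% were higher in Psma7 cKO eggs, and 71.1% after median-ratio rescaling. The number of entries called, 761, depended on single libraries. It was 3 without WT egg replicate 3, 12 without WT egg replicate 1 and 1160 without Psma7 cKO egg replicate 2. Egg calls of genes other than the 8 members were not followed through these fits. The members' median log2 fold change was 0.06 beside 0.07 over all entries tested. Pou5f1 had 11.9, 9.55, 9.32 and 7.75 FPKM in Psma7 cKO eggs, each above the highest WT egg at 6.83 FPKM, with a log2 fold change of 0.61 (SE 0.15, adjusted p = 0.0407). The call is at the edge of the threshold. It was lost in 7 of the 8 fits that left out 1 library, with adjusted p up to 0.116. It was also lost with a replicate block (adjusted p = 0.0891) and in the fit of all 16 libraries together (adjusted p = 0.239).

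Dppa4 had the larger difference and the larger spread. Psma7 cKO eggs held 3.60, 0.868, 3.25 and 4.02 FPKM, a mean of 2.93 ± 1.41 against 0.665 ± 0.153 in WT eggs, 4.41 times as much. All 4 lay above the WT range, the lowest of them by a very small margin, 0.868 against 0.865 FPKM. With the floor at 1 FPKM the log2 fold change was 1.39 (SE 0.39, 95% interval 0.50 to 2.28) with an adjusted p of 0.0598. It passed the threshold with a floor of 0.1 (1.95, adjusted p = 0.0405) and with 1 FPKM added (1.15, adjusted p = 0.0468). It also passed without the filter on low values (1.39, adjusted p = 0.0130) and in the fit of all 16 libraries (1.39, adjusted p = 0.00717). The adjusted p stayed above 0.05 without the intensity trend (0.0704) and after median-ratio rescaling (0.0604). The same held with a replicate block (0.0827) and with entries of 1 name summed (0.0590). Without Psma7 cKO egg replicate 2 the log2 fold change was 1.85 with an adjusted p of 0.00226, and over the other 7 fits that left out 1 library the adjusted p reached 0.143. Dppa4 entered this test through the Psma7 cKO eggs alone, since its WT egg mean is below the filter. With the floor at 1 FPKM its 4 WT egg values are equal, so the SE and p of such fits take no spread from WT pools. Dppa4 did not reach 3-fold with floored means, as 0.591% of all entries did, but did so without replicate 2.

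The level of other decaying transcripts also varied among the Psma7 cKO egg libraries. The summed FPKM of the 396 other entries that fell over 10-fold in WT was 12.7%, 8.81%, 34.5% and 19.1% of the Psma7 cKO GV mean in the 4 Psma7 cKO egg libraries, and between 5.93% and 6.80% in WT eggs. Those entries were chosen for their low WT egg values, so the WT figure is low by construction. Replicate 2 was the lowest of the 4 both for this sum, not far below replicate 1, and for Dppa4, but the library highest for the sum was replicate 3, which was not the highest for Dppa4. Psma7 itself gave another order, with 50.3 FPKM in replicate 2 and 59.9 FPKM in replicate 4, which held the most Dppa4. The part of the general level of decaying transcripts or of the remaining Psma7 RNA in the Dppa4 difference was not tested.

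Dppa2 went the other way in eggs and was not called. Its values were 87.8, 110.4, 109 and 107 FPKM in Psma7 cKO eggs against 116, 128, 110.4 and 126 in WT, a log2 fold change of -0.22 (95% interval -0.42 to -0.02, adjusted p = 0.141). Together with Dppa4 and Pou5f1 it made 3 of 8 members whose groups did not overlap, where 20.7% of all entries did not. Groups without overlap always give p = 0.0286 in a two-sided exact permutation test on raw FPKM, the smallest that 4 libraries against 4 allow. For these 3 the test therefore adds nothing to the separation itself. On floored values the exact p for Dppa4 was 0.143, since 5 of the 8 egg values sit on the floor.

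Because Dppa4 and Dppa2 differed in opposite directions, their ratio was also taken within each library, a measure chosen after the values were seen. Dppa4 amounted to 0.546%, 0.521%, 0.784% and 0.392% of Dppa2 in WT eggs and to 4.10%, 0.787%, 2.98% and 3.77% in Psma7 cKO eggs. The geometric means differed 4.51-fold, again with replicate 2 only just above the WT range. No p is given for this ratio, since both genes were already seen to separate in opposite directions. In WT GV oocytes the ratios were 7.56%, 10.3%, 7.40% and 10.6%. In Psma7 cKO GV oocytes they were 10.0%, 13.3%, 12.4% and 10.6%, a 1.30-fold difference of geometric means with overlap. A ratio within a library does not depend on how libraries are scaled to each other.

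**Figure D3:**
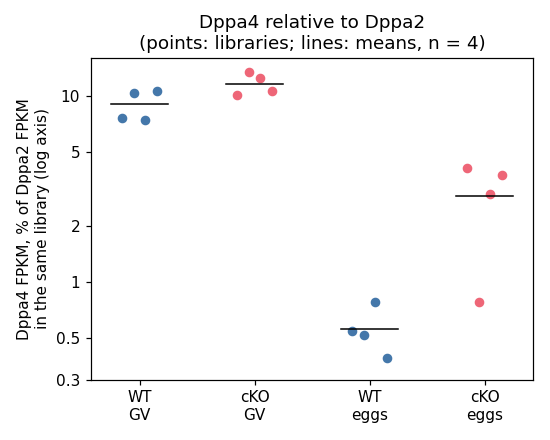
Dppa4 FPKM as a percentage of Dppa2 FPKM in the same library, on a log axis, one point per library with the group mean as a line. The 8 GV libraries sit between 7.40% and 13.3%, WT eggs between 0.392% and 0.784%, and 3 of the 4 Psma7 cKO eggs between 2.98% and 4.10% with the fourth at 0.787%.

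For the other 5 members the egg genotypes overlapped. Sall4 had 291, 298, 248 and 233 FPKM in WT and 242, 258, 227 and 214 in Psma7 cKO eggs (-0.18, 95% interval -0.40 to 0.04, adjusted p = 0.246), and Dppa5a had 52.6, 72.4, 52.1 and 57.5 against 70.5, 73.6, 73.7 and 46.0 FPKM (0.16, -0.22 to 0.54). Tcf3 (0.08, -0.29 to 0.45), Lin28a (0.04, -0.35 to 0.43) and Ctcf (-0.02, -0.22 to 0.18) gave the smallest estimates. For Ctcf the interval leaves room for a difference of at most 0.22 on the log2 scale, and for Lin28a of up to 0.43.

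Whether the change from GV oocyte to egg differed between genotypes was tested with the interaction term over all 16 libraries, in which 0 of the 8 members and 1.26% of 10615 entries were called. Dppa4 had the largest term, 1.18 (SE 0.43, adjusted p = 0.165), and it was the 1 member at an unadjusted limma p under 0.05. Without Psma7 cKO egg replicate 2 the term was 1.64 with an adjusted p of 0.000163. In the other 15 fits that left out 1 library it was not called, with a term down to 0.97 and an adjusted p up to 0.269. All WT egg values of Dppa4 sit on the floor in these fits and add no spread. The term for Pou5f1 was 0.29 (-0.69 to 1.26), so the egg difference in Pou5f1 was not shown to be particular to eggs. Dppa5a had 0.44 (-0.09 to 0.96) and the other 5 members lay between -0.09 and 0.09.

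**Figure D4:**
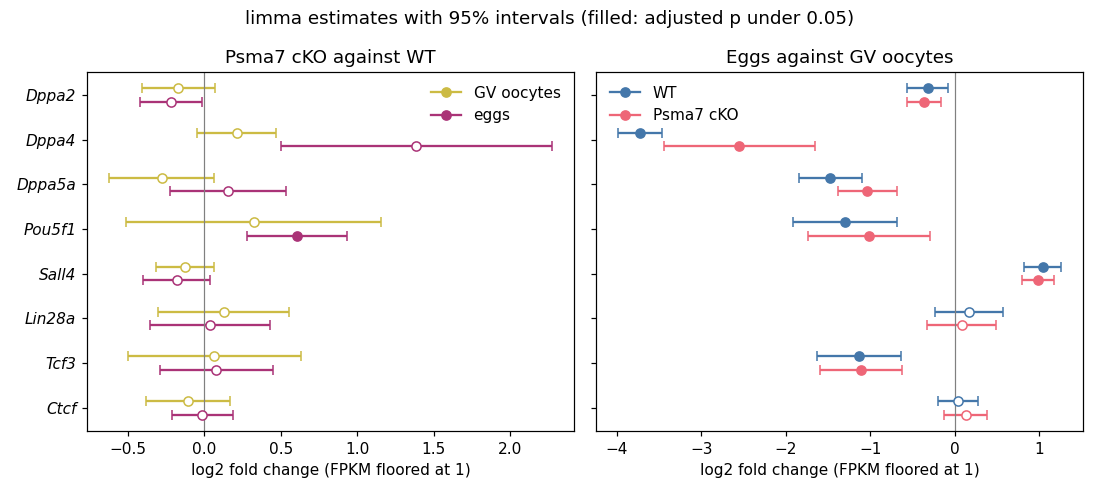
limma log2 fold changes of the 8 genes with 95% intervals, for Psma7 cKO against WT (left, GV oocytes and eggs) and for eggs against GV oocytes (right, WT and Psma7 cKO), with filled points where the adjusted p is under 0.05. Pou5f1 in eggs is the only filled point on the left, at 0.61, and on the right Lin28a and Ctcf are drawn unfilled in both genotypes.

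The members also differed in how much pools of one group varied. Pou5f1 had a coefficient of variation of 44.9% among WT GV libraries and 44.6% among Psma7 cKO GV libraries, where the median of entries within 2-fold of its level was 12.6% and 11.1%. It was higher than that of 99.5% and 99.2% of those entries, and in WT eggs it was 11.0%, close to their median of 11.7%. Tcf3 varied by 27.8% and 28.7% in GV oocytes. In each genotype the 2 GV libraries lowest for Pou5f1 were also the 2 lowest for Tcf3. At the other end, Dppa2 varied by 2.29% among Psma7 cKO GV libraries and Ctcf by 3.63% among WT eggs. Dppa5a varied by 23.5% in WT GV oocytes, above 95.6% of entries of like level.

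The entries with the most similar pattern were taken as the 2 with the highest Pearson r over the 16 libraries, from 10614 entries. These r values are descriptions. The libraries share 2 stages, and most of the likeness is the step between them. Dppa4 was most like Hmga2-ps1 (r = 0.990) and Mfsd2a (r = 0.989), and 957 entries exceeded an r of 0.95 with it. Sall4 was most like Camsap1 (r = 0.989) and Zfp664 (r = 0.988), with 547 entries above 0.95, Tcf3 like Gpd1l and Dcaf8 (both r = 0.977), and Dppa5a like Gm29759 (r = 0.962) and Mrpl23 (r = 0.958). Pou5f1, most like Mrpl9 (r = 0.948) and Srbd1 (r = 0.944), and Dppa2, most like Trim24 (r = 0.906) and Acp1 (r = 0.896), had none above 0.95. Ctcf was closest to Gm38528 (r = 0.900) and Gm3531 (r = 0.898), and Lin28a to Ppp1r15a (r = 0.849) and Atp5b (r = 0.838), the lowest likeness of the 8.

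Genes that work with the members were described from lists, some of which share genes (Dppa1, Dppa3 and Tcf12 are each in 2). In GV oocytes 0 genes of any list were called between genotypes in limma, and 0 to 2 per list passed an unadjusted p of 0.05, as did 843 (higher) and 339 (lower) of all 11062 entries. Of 20 other core pluripotency factors in the table, 7 were tested. From WT GV oocytes to eggs 6 of these fell and 1 rose, where 52.4% of all entries fell and 26.1% rose. Their median was -0.61 against -0.44 over all entries. Gbx2, a homeobox factor of the naive state, fell from 19.1 ± 3.56 to 3.29 ± 0.608 FPKM (log2 fold change -2.54), and the orphan receptor Esrrb (-2.14) and the LIF effector Stat3 (-0.64) fell with it. Dppa3, encoding the maternal factor STELLA, rose from 370.0 ± 61.7 to 653 ± 94.8 FPKM (0.82). In Psma7 cKO oocytes 3 fell and 1 rose, where 51.0% of all entries fell and 23.0% rose. Gbx2 (-2.52), Esrrb (-1.75), Stat3 (-0.96) and Dppa3 (0.78) were the 4. In eggs 0 of the 7 were called between genotypes, with 2 at an unadjusted p under 0.05, a limit that 1952 (higher) and 835 (lower) of all 9492 entries passed. Sox2, Zfp42 and Klf2 stayed below 1 FPKM in every library, and Nanog is not analysed here.

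A list of 14 genes held paralogs of the members and some genes that share only a name with them, such as Dppa1 and Dppa3. Of these 14, 6 were tested in WT. Among the 6, 2 rose and 3 fell (median -0.34), where 26.1% of all entries rose and 52.4% fell. Lin28b rose from 1.38 ± 0.170 to 2.75 ± 0.172 FPKM (1.00, with 0.74 in Psma7 cKO), unlike Lin28a, and Dppa1 fell (-0.57). Another E-protein gene, Tcf12, fell in WT (-0.75) and in Psma7 cKO oocytes (-0.96). In Psma7 cKO 2 of 6 rose and 2 fell, where 23.0% of all entries rose and 51.0% fell. Sall1 and Sall3 stayed below 1 FPKM, as did the germ-line CTCF paralog Ctcfl. In eggs 0 of the 6 were called between genotypes, with 1 at an unadjusted p under 0.05, where 8.02% of all entries were called.

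Of 12 early-embryo genes in the table that are linked to DPPA2 and DPPA4, 3 passed the filter on low values in WT. Zscan4d had 1.72 to 2.51 FPKM in WT GV oocytes and 0.658 to 0.958 FPKM in WT eggs. It passed the filter through the GV libraries alone and all 4 egg values lie below the floor, so its called estimate (-1.05) is set by the floor. Tcstv1 rose from 163 ± 27.3 to 222 ± 36.7 FPKM (0.45). Thus 1 rose and 1 fell in WT, where 26.1% of all entries rose and 52.4% fell. In Psma7 cKO 1 of the 3 was called, Tcstv1 at 0.24, where 74.0% of all entries were called. Zscan4d and Tcstv1 have near-identical family members whose reads can be shared. In eggs 2 were tested between genotypes and 0 were called, where 8.02% of all entries were called. Of the 2, 1 had an unadjusted p under 0.05, as did 1952 (higher) and 835 (lower) of all 9492 entries.

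Around LIN28, 8 entries of the let-7 pathway were tested, of which 3 rose and 4 fell in both genotypes from GV oocytes to eggs. Among all entries tested, 26.1% rose and 52.4% fell in WT, and 23.0% rose and 51.0% fell in Psma7 cKO. Trim71, a let-7 target that encodes an RNA-binding protein, fell in WT from 22.6 ± 1.06 to 4.74 ± 1.19 FPKM (-2.29) and in Psma7 cKO (-2.05). The export factor Xpo5 (-1.27 in WT, -1.16 in Psma7 cKO) and the Argonaute Ago2 (-1.15 and -1.13) also fell, and the uridylyl transferase Zcchc6 rose (1.26 and 0.87). In eggs the microprocessor nuclease Drosha was lower in Psma7 cKO, at 5.17 ± 0.320 against 7.28 ± 0.999 FPKM (-0.48, SE 0.13, adjusted p = 0.0485). It was the 1 call among the 8 entries of this list, where 8.02% of all entries tested were called.

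Of the NuRD complex, which SALL4 recruits, 11 entries were tested, and 3 rose and 4 fell in both genotypes. Among all entries tested, 26.1% rose and 52.4% fell in WT, and 23.0% rose and 51.0% fell in Psma7 cKO. The histone-binding subunit Rbbp7 rose from 1496 ± 122 to 3369 ± 156 FPKM in WT (1.17, with 1.12 in Psma7 cKO), as did Gatad2b (1.15 and 0.98). The deacetylase Hdac1 (first entry, -2.46 and -1.80) and the subunit Mbd3 (-1.95 and -1.67) fell. In eggs 0 of 11 were called between genotypes, with 3 at an unadjusted p under 0.05, where 8.02% of all entries were called. Cohesin and its regulators, the partners of CTCF, went mostly up while Ctcf was not called. Of its 12 entries, 8 rose and 2 fell in WT, with a median of 0.77 against -0.44 over all entries, and 7 rose and 2 fell in Psma7 cKO. The release factor Wapl (1.29 in WT, 1.33 in Psma7 cKO), the kleisin Rad21 (1.28 and 1.13), the acetyltransferase Esco1 (1.20 and 1.18) and the core subunit Smc3 (1.09 and 0.93) rose, while the loader subunit Mau2 fell (-0.96 and -1.28). In eggs 0 of the 12 were called between genotypes, with 7 at an unadjusted p under 0.05, Smc1a among them higher (0.42). Over all 9492 entries, 1952 (higher) and 835 (lower) passed that limit. The median of the 12 was -0.24 beside 0.07 over all entries.

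Of 5 partners and inhibitors of E-proteins tested in WT, 4 fell and 0 rose, where 52.4% of all entries fell, with a median of -1.24 beside -0.44 over all entries. The germ-cell factor Sohlh2 was not called (-0.20, adjusted p = 0.270). Figla, the germ-line partner of E-proteins that drives zona pellucida genes, fell from 18.5 ± 4.08 to 1.60 ± 0.426 FPKM (-3.55), and the inhibitors Id3 (-1.57) and Id2 (-1.24) fell as well. In Psma7 cKO 3 of 6 fell, where 51.0% of all entries fell, with Figla at -1.87, Id3 at -2.04 and Tcf12 at -0.96, while Sohlh2 (-0.41), Id2 (-0.67) and Id1 (0.0081) were not called. Id1 did not pass the filter in eggs and was not tested there, with 0.0716 to 0.338 FPKM in WT and 0.492 to 1.87 FPKM in Psma7 cKO. Of the 5 tested in eggs, Figla was the 1 gene called between genotypes, where 8.02% of all entries tested were called. Figla had 4.96 ± 2.02 FPKM in Psma7 cKO eggs against 1.60 ± 0.426 FPKM in WT eggs (1.57, SE 0.32, adjusted p = 0.0311). The interaction term of Figla was called (1.68, SE 0.38, adjusted p = 0.0425), where 1.26% of all entries tested were called. Of the 10 oocyte markers tested in eggs, 1 was called between genotypes, the zona gene Zp3, higher in Psma7 cKO (1.20, SE 0.19, adjusted p = 0.0203, interaction 1.14). The zona genes Zp1 (0.73, adjusted p = 0.0577) and Zp2 (0.89, adjusted p = 0.0551) were not called in eggs or in the interaction. A link between Figla and the zona genes was not tested. Figla and Zp3 belong with transcripts that fell strongly in WT (-3.31 for Zp3), as Dppa4 did.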

How the data were processed

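The authors prepared oligo-dT primed Smart-seq2 libraries, with ERCC spike-in added at lysis, and deposited 1 table of FPKM values. TopHat2 2.1.1, Cufflinks 2.2.1 and mm10 are from the submitters' processing notes. The table holds 0 ERCC entries, so values are shares of a library. Libraries were matched to groups by labels and column names. FPKM below 1 were set to 1 and log2 values fitted with limma 3.58.1 in R 4.3.3 (empirical Bayes with intensity trend), for entries with a mean of at least 1 FPKM, each comparison on its own 8 libraries and the interaction on 16. The code was tested on simulated data. For single genes, exact permutation tests (two-sided, 70 arrangements) were used. Members and lists were chosen with earlier results of these data known. All members were named, and from each list at most 4 called genes per comparison by size of change, others being added after their values were seen. Drawings and tests outside limma used Python 3.11.15 with scipy 1.17.1. Depth was estimated from the steps between FPKM values below 0.6 and transcript lengths, and limits low values by counting error. Alternatives were another floor, 1 FPKM added, other filters, no trend, median-ratio rescaling, a replicate block, 1 joint fit, summed entries and each library left out.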

Additional observations from a re-analysis of the deposited data

Results flagged for a closer look

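In 36 groups of 4 libraries (the 8 genes and Psma7), 4 held a library whose gap to its nearest neighbour exceeded Dixon's 95% critical value as a share of the group's range. Chance alone flags about 1 in 20 groups. Dppa2 was high at 137.5 FPKM in Psma7 cKO GV replicate 1, where the other 3 lay between 131.0 and 132.0 FPKM. Dppa2 was low at 87.77 FPKM in Psma7 cKO egg replicate 1. Dppa5a was low at 46.03 FPKM in Psma7 cKO egg replicate 4. Tcf3 was low at 4.745 FPKM in WT GV replicate 3, the library that was also lowest for Pou5f1 and highest for Dppa2 and Dppa5a. The gap between Dppa4 in Psma7 cKO egg replicate 2 and the other 3 libraries stayed below the critical value.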

How the results depend on the processing

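Of 345 member results under alternatives that keep every library, 332 kept their direction and side of the threshold. The count of members called in eggs between genotypes, 1, became 2 with a floor of 0.1 FPKM, with 1 FPKM added or without the filter on low values, and 0 with the replicate block. Without the filter most entries do not vary, which makes limma's shared variance unreliable. The block took Pou5f1 in eggs to an adjusted p of 0.0891 and Dppa2 between WT stages to 0.0543, both above the threshold, and changed no other member's call. Samples of the same replicate number correlated between -0.50 and 0.29 in their deviations, so the numbers were not taken as pairs, and 1 of 16 correlated best with its own number. The count past 3-fold in eggs, 0, became 1 (Dppa4) at 2-fold or with a floor of 0.1 FPKM, and the count past 10-fold in Psma7 cKO, 0, became 1 at 5-fold. The exact test at 0.05 in eggs, which only groups without overlap can pass, passed 2 genes on floored values and 3 on raw FPKM. Median-ratio rescaling raised the share of higher calls from 31.1% to 42.0% of calls in the Psma7 cKO stage comparison and turned the sign of Lin28a in eggs (-0.011) and of the Tcf3 interaction (-0.014), neither called.

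Over fits that left out 1 library, members called ranged from 0 to 0 in GV oocytes, from 0 to 1 in eggs, from 5 to 6 in the WT and from 6 to 6 in the Psma7 cKO stage comparison, and from 0 to 1 for the interaction (Dppa4 without Psma7 cKO egg replicate 2). Counts past the fold limits ranged from 0 to 1 in eggs and stayed at 0 in GV oocytes, 1 in the WT and 0 in the Psma7 cKO stage comparison. The estimates whose sign turned were never called. They ranged in GV oocytes from -0.033 to 0.23 for Lin28a and -0.17 to 0.22 for Tcf3, in eggs from -0.058 to 0.027 for Ctcf, -0.071 to 0.17 for Lin28a and -0.033 to 0.16 for Tcf3, between stages from -0.027 to 0.13 for Ctcf in WT and -0.030 to 0.21 for Lin28a in Psma7 cKO, and for the interaction from -0.15 to 0.029 for Dppa2, -0.20 to 0.072 for Lin28a, -0.0095 to 0.49 for Pou5f1 and -0.14 to 0.25 for Tcf3. The log2 ratio of Dppa4 over Dppa2 between egg genotypes, chosen after seeing the data, lay between 1.93 and 2.72. The causes were not tested. Depth limits Dppa4 most, with 10 to 18 estimated fragments in WT eggs.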
